A study of Mus musculus with 10 samples.

Results

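The genes described here encode the enzymes of cholesterol and fatty acid synthesis and the proteins that regulate them. Members were taken by symbol from a list of 29 genes named for their pathway, a list drawn up with earlier results of these data known. All 29 were found among the 23238 gene symbols shared by the 10 count files, and all 29 were among the 13040 genes that passed the filter on low counts. The cholesterol branch held 17 genes, of which 7 act in the mevalonate steps and 10 in the squalene and sterol steps. The fatty acid branch held 6 genes, and 6 further genes encode regulators or a sterol carrier.

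The libraries came from endothelial cells purified from orthotopic high-grade gliomas, which were grown by injecting GL26l glioma cells into the brains of congenic mice labelled C57BL/6. Endothelial deletion of the transcription factor gene Sox7 or Sox17 was made with the Cdh5(BAC)-CreERT2 driver, a tamoxifen-activated recombinase under an endothelial promoter, bred to Sox7fl/fl or Sox17fl/fl mice. The Sox7 arm held 2 control and 2 deficient libraries and the Sox17 arm 3 of each, and a control and a deficient library of the same number were taken as a set. Per the design text, experimental mice received 20 mg/kg tamoxifen by intraperitoneal injection. What alleles the controls carried, whether they received tamoxifen, the age of the mice and how many animals went into a library are not given in the sources used here, so an effect of tamoxifen or of the recombinase cannot be told apart from the deletion. The p-values measure the spread between these libraries, which may be in part technical.

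Cholesterol is built from acetyl-CoA through mevalonate, isoprenoid units and squalene, which is closed into a ring and trimmed to cholesterol. Fatty acids are built from the same acetyl-CoA through malonyl-CoA and are then elongated and desaturated. Both branches are controlled by SREBP transcription factors, membrane proteins that SCAP escorts out of the endoplasmic reticulum when sterols are low and that INSIG proteins hold back when sterols are high. Endothelial cells of the brain take up lipid from blood and also make their own for membranes.

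Promoter windows played no part in choosing the genes. RefSeq windows on GRCm38.p6, from 250 bases before to 50 bases after a gene's start, were matched by symbol for 23 of the 29 genes (31 windows). Entries for Fdps, Fdft1, Sqle, Stard4, Scd1 and Scd2 were not used here. The CCAAT box, the motif bound by the factor NF-Y, was found on either strand in 19 of the 23 genes (82.6%), against 41.1% of the 27025 genes with a window and 43.2% of those among the genes tested. In the cholesterol branch 13 of 14 genes held it, among the regulators 4 of 5 and in the fatty acid branch 2 of 4, the last near the share of all genes. The core of a classical sterol regulatory element, TCACNCCAC on either strand, was found in 1 of the 23 genes (4.35%, against 1.44% of all genes with a window). The E-box CACGTG was found in 5 (21.7%, against 8.09%). Among the genes tested these shares were 1.40% for the sterol element and 11.6% for the E-box. The members' windows were 60.6% G or C, against 53.8% for all windows. A match is a description of these letters and not of binding. The 250 bases before the start are given 5′ to 3′ on the gene's strand for 4 members, Hmgcs1 because it alone held the sterol element, and Mvd, Ebp and Fasn because their counts are described in detail later. Capitals mark the motifs, and ATTGG is the CCAAT box on the other strand. The windows are chr13:119690101-119690350 on the plus strand for Hmgcs1, chr8:122443423-122443672 on the minus strand for Mvd, chrX:8193513-8193762 on the minus strand for Ebp and chr11:120824548-120824797 on the minus strand for Fasn. In each the window lies upstream of the gene as annotated by GENCODE vM21.
Hmgcs1: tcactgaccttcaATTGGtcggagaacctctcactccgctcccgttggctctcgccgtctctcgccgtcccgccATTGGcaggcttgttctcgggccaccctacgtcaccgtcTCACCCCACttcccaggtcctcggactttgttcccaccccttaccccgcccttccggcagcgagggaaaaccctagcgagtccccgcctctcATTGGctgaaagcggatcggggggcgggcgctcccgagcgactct
Mvd: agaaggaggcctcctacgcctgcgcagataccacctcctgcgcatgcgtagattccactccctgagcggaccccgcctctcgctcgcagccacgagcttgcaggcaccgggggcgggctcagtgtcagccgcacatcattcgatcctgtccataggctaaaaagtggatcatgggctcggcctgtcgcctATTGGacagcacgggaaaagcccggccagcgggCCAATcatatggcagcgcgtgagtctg
Ebp: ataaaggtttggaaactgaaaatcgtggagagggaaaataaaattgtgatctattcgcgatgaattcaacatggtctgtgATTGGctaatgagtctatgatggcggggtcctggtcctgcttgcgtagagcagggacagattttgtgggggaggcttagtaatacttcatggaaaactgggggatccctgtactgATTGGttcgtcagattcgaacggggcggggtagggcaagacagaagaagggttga
Fasn: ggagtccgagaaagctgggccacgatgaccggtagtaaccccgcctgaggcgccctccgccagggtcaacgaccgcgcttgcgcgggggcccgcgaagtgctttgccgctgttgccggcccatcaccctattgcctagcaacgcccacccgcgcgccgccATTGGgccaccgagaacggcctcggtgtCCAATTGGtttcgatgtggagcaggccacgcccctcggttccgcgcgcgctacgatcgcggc
In Hmgcs1 the sterol element begins 137 bases before the start, with CCAAT boxes on both sides of it. The last 5 bases of Fasn's CCAATTGG run are a CCAAT box on the other strand, so its 2 boxes there overlap. CACGTG was absent from all 4 of these windows.

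Total counts ran from 2085020 in the first Sox17 control library to 35098704 in the second Sox17-deficient library. A count of 3, used here as the floor of detection, was worth 1.36 counts per 1000000 counts (CPM) in the former and 0.0847 CPM in the latter. The ribosomal RNA precursor Rn45s took 3.93% to 28.8% of the counts. The deleted genes carried their labels: Sox7 was at 23.1 and 5.90 CPM in its controls and at 0.577 and 0.664 CPM in the Sox7-deficient libraries, and Sox17 at 90.1 to 174 CPM in its controls and at 1.07 to 6.70 CPM in the Sox17-deficient libraries. The position of these tags relative to the excised exons is not given in the sources used here. All 14 pan-endothelial markers were detected in every library, with a summed level of 10238 to 20108 CPM. The first Sox7-deficient library stood apart, with 14200 CPM summed over 14 macrophage and microglia markers against 18.6 to 829 CPM in the other 9 libraries. In bulk RNA, fewer cells of a type and less RNA per cell cannot be told apart.

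Every member was read in these endothelial cells, but many near the limit of detection. Summed over the 29 genes, the level was 906 to 1346 CPM in 9 libraries and 629 CPM in the first Sox17 control library, the shallowest. In that library 8 members had 3 counts or fewer, and Lss, Nsdhl, Elovl6 and Scd1 had none. Lss and Dhcr7 had no counts in the second Sox7 control library, Sc5d none in the second Sox7-deficient library and Dhcr7 none in the third Sox17-deficient library. More than 3 counts in all 10 libraries were found for 17 of the 29 genes (58.6%), near the 55.7% of all genes tested.

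**Figure D1:**
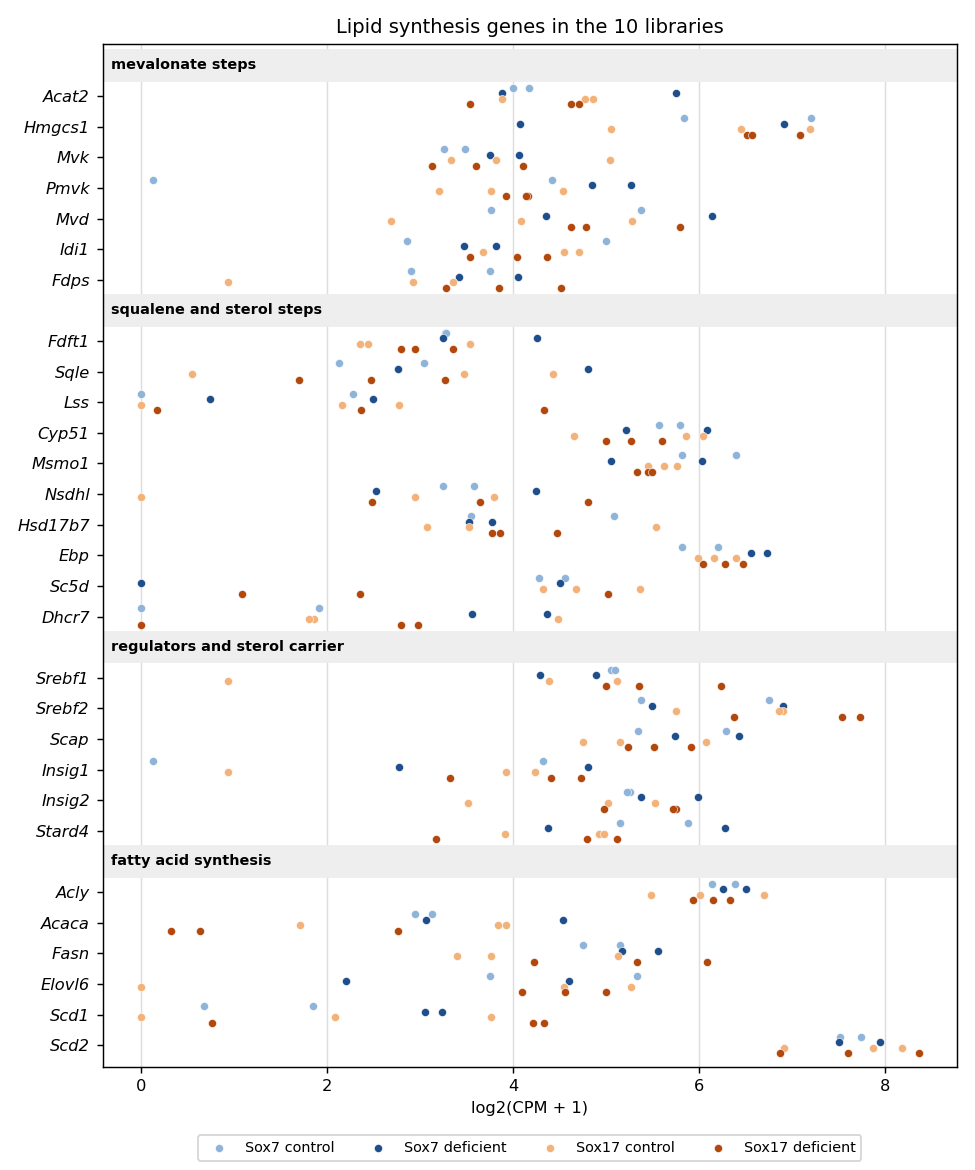
Level of each of the 29 genes in the 10 libraries, on the log2(CPM + 1) scale, grouped by pathway step; each point is 1 library and colours mark the 4 groups. Points at 0 are libraries without a count, and the points of most genes from control and deficient libraries are interspersed.

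Among the 5 control libraries, levels were steadiest for Ebp, the isomerase that moves the ring double bond in late sterol synthesis, which spanned 55.2 to 83.2 CPM, and for Msmo1, a sterol demethylase, which spanned 42.7 to 82.9 CPM. Mvd, the decarboxylase that makes isopentenyl diphosphate, spanned 5.45 to 40.3 CPM over the same libraries. Hsd17b7, a keto-sterol reductase, spanned 7.43 to 45.4 CPM. The control levels of these latter genes thus differed by up to 7.41-fold and 6.11-fold between control libraries. The biological coefficient of variation, edgeR's estimate of the spread between libraries of a group, had a median of 0.75 over the 29 genes, from 0.39 for Ebp to 1.66 for Lss, against a median of 0.81 over all genes tested.

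Loss of Sox7 moved no member past the threshold. In edgeR's quasi-likelihood test 0 of the 29 genes had an adjusted p under 0.05, where 0% of all 13040 genes did, and 0 had an unadjusted p under 0.05, where 1.5% of all genes did. The deleted gene Sox7 was thus not called in this test either, although its CPM fell as given earlier. For that reason 0 calls cannot show that the members were unchanged. DESeq2 and limma-voom called 0 members too. Fitted values were higher in the deficient group for 22 of the 29 genes, against 51.9% of all genes, and lower for 7, against 47.5%. For 15 genes they were higher in both sets, against 22.3%. A further 5 genes were lower in both sets, against 22.5%. The median log2 fold change was 0.46 in the cholesterol branch, 0.28 in the fatty acid branch and 0.20 among the regulators, beside 0.04 over all genes tested. Without the first Sox7-deficient library, the one rich in macrophage markers, 15 of the 29 genes were higher (37.6% of all genes) and the cholesterol branch median was -0.051, beside -0.26 for all genes. All 14 macrophage and microglia markers were higher in the fit, at a summed 213 to 829 CPM in the controls and 14200 and 123 CPM in the deficient libraries, with Itgam at 0 in the second control and Ptprc, Mrc1 and Trem2 at 0 in the second deficient library. Pan-endothelial markers summed to 14784 to 17244 CPM in the Sox7 controls and 10238 to 14162 CPM in the deficient libraries, with 12 of 14 lower in the fit. Oligodendrocyte markers summed to 18.9 to 23.6 CPM in controls and 38.5 to 73.9 CPM in deficient libraries, with 4 of 5 tested markers higher in the fit. Glioma and progenitor markers summed to 656 to 718 CPM and 489 to 618 CPM, while 4 of 5 tested markers were higher in the fit. The exception was Vim, at 502 to 649 CPM in controls and 304 to 380 CPM in deficient libraries, which made up most of these sums. The part of these markers in the counts of the members was not tested.

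Deficient and control libraries did not overlap for 7 members that were higher without Sox7, where 12.7% of all genes did the same. These were Mvk, Pmvk, Ebp, Dhcr7, Insig2, Fasn and Scd1. In the other direction this held for Srebf1 alone, where 12.8% of all genes did the same.

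Pmvk, the kinase that adds the second phosphate to mevalonate, was at 20.4 and 0.0922 CPM in the Sox7 controls and at 27.9 and 37.6 CPM in the deficient libraries. Both deficient libraries lay above both controls, and the second control held 1 count. Its fitted log2 fold change was 1.68 (SE 1.36, 95% interval -1.17 to 4.53, adjusted p = 1 by edgeR), and it was 0.68 without the second control and 8.29 without the first.

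Ebp was at 72.4 and 55.2 CPM in the controls and at 93.4 and 105 CPM in the deficient libraries. It was the member with the tightest fold change, a log2 value of 0.64 (SE 0.48, 95% interval -0.38 to 1.65, adjusted p = 1 by edgeR). Both deficient libraries lay above both controls, and the interval includes 0.

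Dhcr7, the reductase of the last step of one route to cholesterol, was at 2.75 and 0 CPM in the controls and at 19.6 and 10.8 CPM in the deficient libraries. This was the highest fitted value among the members, a log2 fold change of 3.46 with a 95% interval from -1.79 to 8.71 (SE 2.5, adjusted p = 1 by edgeR). It was 2.46 without the second control and 10.45 without the first. In the Sox17 arm the same gene was at 21.3 CPM in the first control and at 0 to 6.88 CPM in the other 5 libraries.

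No other cholesterol gene passed the threshold either. Mvk, the kinase that adds the first phosphate to mevalonate, was at 10.2 and 8.57 CPM in controls and at 15.7 and 12.5 CPM in deficient libraries, without overlap (log2 fold change 0.59, SE 1.20). Acat2, a thiolase that joins acetyl-CoA units, had a log2 fold change of 1.06 (SE 0.89), with opposite directions in the sets. Fitted log2 fold changes ran from -0.92 for Sc5d to 1.63 for Sqle outside the genes already given. Sqle, the epoxidase that acts on squalene, was at 3.35 and 7.19 CPM in controls and 5.77 and 26.9 CPM in deficient libraries, which overlap. Hmgcs1, the synthase that commits acetyl groups to mevalonate, was at 146 and 56.1 CPM in controls and at 119 and 15.8 CPM in deficient libraries. It was lower in both sets, with overlap between the groups, as were Hsd17b7 and Msmo1.

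Fitted changes of the 4 regulators were smaller than their standard errors. Srebf2, which encodes the SREBP most tied to sterol synthesis, was at 106 and 40.3 CPM in the Sox7 controls and at 118 and 44.1 CPM in the deficient libraries. The sets differed more from each other than the deficient library from its control in either, and the log2 fold change was 0.15 (SE 0.63, 95% interval -1.17 to 1.47). Scap was at 39.4 and 77.1 CPM in controls and at 52.5 and 85.2 CPM in deficient libraries, a log2 fold change of 0.24 (SE 0.61). Srebf1, which encodes the SREBP most tied to fatty acid synthesis, was at 32.1 and 33.2 CPM in controls and at 28.7 and 18.6 CPM in deficient libraries. Both deficient values were below both controls, with a log2 fold change of -0.46 (SE 0.95, 95% interval -2.46 to 1.53). Insig1 was at 18.9 and 0.0922 CPM in controls, the latter being 1 count, and at 26.8 and 5.84 CPM in deficient libraries (log2 fold change 0.78, SE 1.62). Leaving out 1 library turned the sign of 3 of these genes: Insig1 ran from -0.74 without the first deficient library to 7.28 without the first control, Srebf2 from -0.76 to 0.99 without the same libraries, and Scap from -0.18 without the first control to 0.80 without the second. The adjusted p with all libraries was 1 for each of the 4 genes by edgeR.

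In the fatty acid branch, Scd1 and Elovl6 had the smallest unadjusted p. Scd1, a desaturase that makes monounsaturated fatty acids, was at 0.599 and 2.58 CPM in the Sox7 controls and at 8.37 and 7.30 CPM in the deficient libraries. The groups did not overlap, at levels of few counts, and the log2 fold change was 2.29 (SE 2.19, 95% interval -2.30 to 6.88, adjusted p = 1 by edgeR), or 3.68 without the second control. Elovl6, which lengthens palmitate, was at 12.5 and 39.2 CPM in controls and at 3.61 and 23.2 CPM in deficient libraries. It was lower in both sets while the groups overlapped (log2 fold change -0.94, SE 1.38), and the value ran from -2.84 without the second deficient library to 0.11 without the second control. Scd2, the desaturase isoform known from brain, was at 181 and 212 CPM in controls and at 180 and 245 CPM in deficient libraries, a log2 fold change of 0.11 (SE 0.54, 95% interval -1.01 to 1.23).

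**Figure D2:**
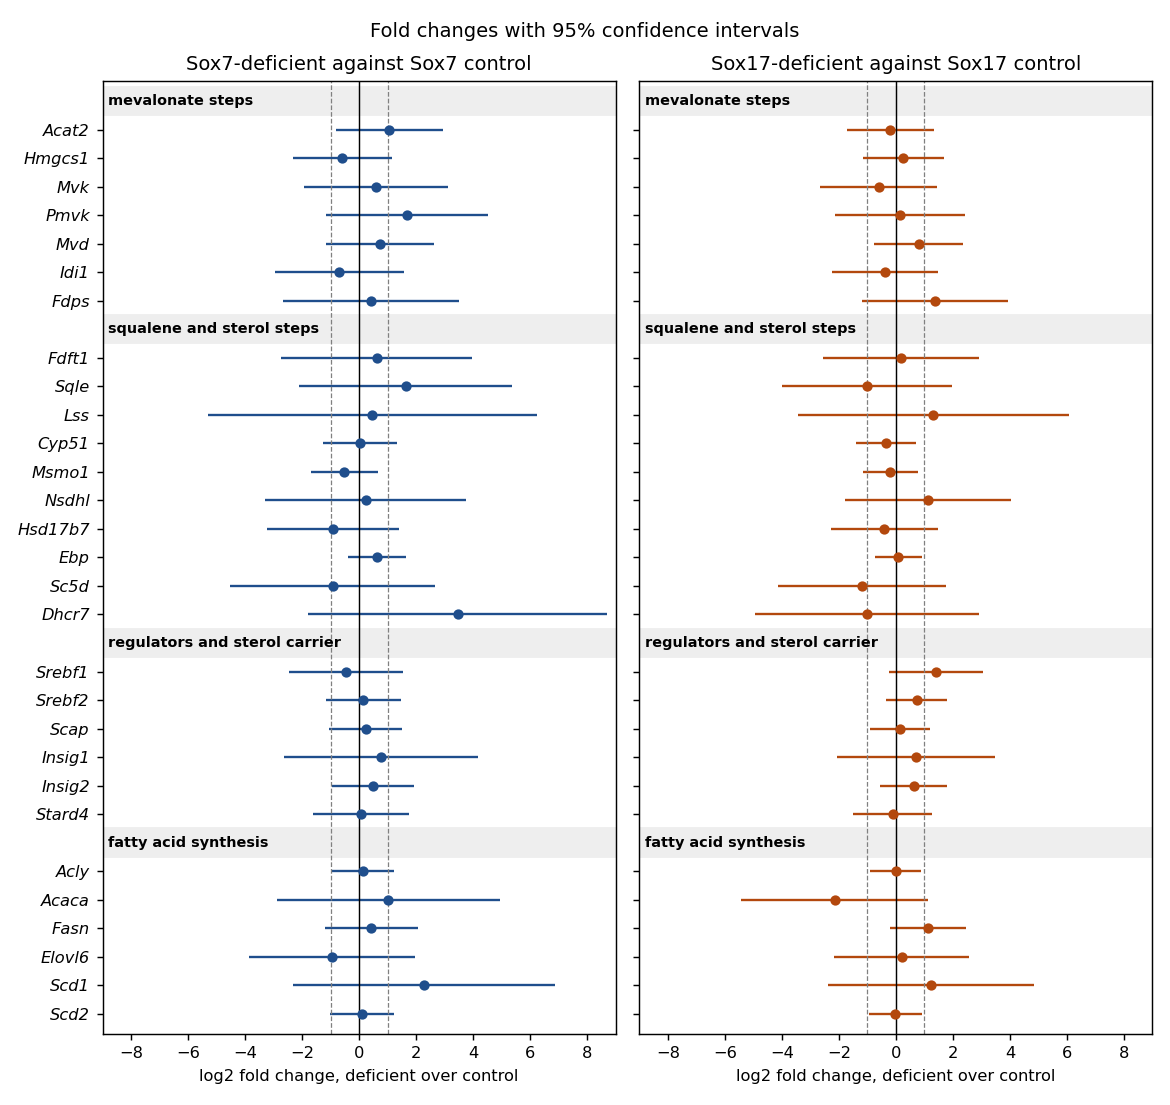
Log2 fold change (deficient over control, x axis) of each gene with its 95% confidence interval, from edgeR's fit, for Sox7 on the left and Sox17 on the right; dashed lines mark a 2-fold change either way. Every interval crosses 0 in both panels, and the widest belong to genes of few counts such as Lss and Dhcr7.

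Loss of Sox17 likewise moved no member past the threshold, and its 3 sets gave narrower intervals. In edgeR's test 0 of the 29 genes had an adjusted p under 0.05, where 0% of all genes did, and 0 had an unadjusted p under 0.05, where 3.52% of all genes did. The deleted gene Sox17 was thus not called in this test either, although its CPM fell as given earlier. Here too 0 calls cannot show that the members were unchanged. DESeq2 and limma-voom again called 0 members. Fitted values were higher for 16 of the 29 genes, against 52.8% of all genes, and lower for 13, against 47.1%. Higher in all 3 sets were 7 genes, Srebf1, Srebf2, Insig1, Mvd, Fdps, Fasn and Scd1, against 13.1% of all genes. In the first set the shallow control held 2 counts each of Srebf1, Insig1 and Fdps and none of Scd1. The deficient library's 0.688 CPM of Scd1 lay below that control's floor of 1.36 CPM, so its direction there cannot be read. Acaca and Msmo1 were lower in all 3 sets, against 11.5%, where any difference from 0 counts and that of Msmo1 in the first set was -0.00041 on the log2(CPM + 1) scale. No member had deficient and control libraries without overlap, where 4.13% of all genes were higher and 4.23% lower without overlap. The median log2 fold change was -0.20 in the cholesterol branch, 0.10 in the fatty acid branch and 0.67 among the 6 regulator and carrier genes, beside 0.05 for all genes. The last group had median set differences of 1.55, 0.18 and 0.72 on the log2(CPM + 1) scale, the highest in the set of the shallow first control.

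Srebf1 and Fasn had the smallest unadjusted p of the 29 genes in this comparison. Srebf1 was at 0.908, 33.6 and 19.9 CPM in Sox17 controls 1, 2 and 3 and at 31.0, 39.9 and 74.1 CPM in the deficient libraries of the same sets. Each deficient library was above the control of its set, while the second control lay above the first deficient library. The log2 fold change was 1.39 (SE 0.79, 95% interval -0.26 to 3.04, unadjusted p = 0.0936, adjusted p = 1 by edgeR). The first control held 2 counts of the gene. Without that library the log2 fold change was 0.84, and without the second control it was 2.15 (unadjusted p = 0.0321, adjusted p = 1 by edgeR). With the sets as a block it was 2.06 (unadjusted p = 0.0166, adjusted p = 1 by edgeR). The 3′ end of Srebf1 overlaps Rai1 on the other strand, and the strand setting of the counting is not given in the sources used here.

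Fasn, the synthase that builds palmitate, was at 9.53, 12.6 and 33.9 CPM in the Sox17 controls and at 17.6, 39.1 and 66.5 CPM in the deficient libraries of the same sets. It was higher in each set by 0.82, 1.56 and 0.95 on the log2(CPM + 1) scale, and the groups overlapped through the third control. Its log2 fold change was 1.12 (SE 0.64, 95% interval -0.22 to 2.47, unadjusted p = 0.0962, adjusted p = 1 by edgeR), from 0.59 to 1.89 as each library was left out. The gene's 250 upstream bases, given earlier, hold 3 CCAAT boxes.

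Acaca, the carboxylase that makes the malonyl-CoA used by Fasn, went the other way. It was at 2.27, 14.1 and 13.3 CPM in controls and at 0.550, 5.79 and 0.248 CPM in the deficient libraries, of which the third held 2 counts. Each deficient library was below the control of its set, with overlap between the second deficient library and the first control. The drop in the first set rested on 5 counts in the shallow control and 4 in the deficient library. The log2 fold change was -2.15 with a 95% interval from -5.44 to 1.13 (SE 1.57, adjusted p = 1 by edgeR), from -4.60 without the second deficient library (unadjusted p = 0.0333) to -1.63 without the third.

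Among the other fatty acid genes, Scd1 was at 0, 12.6 and 3.22 CPM in the controls and at 0.688, 17.6 and 19.1 CPM in the deficient libraries, with overlap. Acly, the lyase that supplies cytosolic acetyl-CoA to both branches, had a log2 fold change of -0.01 (95% interval -0.90 to 0.89). Scd2 was at 119, 290 and 232 CPM in controls and 116, 327 and 192 CPM in deficient libraries, a log2 fold change of -0.02 (95% interval -0.93 to 0.90). Ebp, in the cholesterol branch, had one of 0.09 (95% interval -0.74 to 0.91). These 3 genes were the members whose interval lay within a 2-fold change either way, as did 4.32% of all genes. In the Sox7 comparison 0 members and 0.33% of all genes had such an interval. For most members a 2-fold change up, down or both ways was thus not excluded at this depth and number of libraries.

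In the mevalonate steps, Mvd was at 5.45, 16 and 37.8 CPM in the Sox17 controls and at 23.5, 26.4 and 54.5 CPM in the deficient libraries of the same sets. It was higher in every set, and the third control lay above the first and the second deficient library. The log2 fold change was 0.80 (SE 0.74, 95% interval -0.75 to 2.35, adjusted p = 1 by edgeR), from 0.32 without the third deficient library to 1.68 without the third control. Fdps, the synthase of farnesyl diphosphate, was at 0.908, 9.17 and 6.56 CPM in controls and at 8.67, 21.8 and 13.4 CPM in deficient libraries. The groups overlapped only through the second control and the first deficient library, and the log2 fold change was 1.38 (SE 1.22, 95% interval -1.19 to 3.95, adjusted p = 1 by edgeR). It was 0.89 without the first control, which held 2 counts, and 1.92 without the second. The 3′ ends of Mvd and Fdps overlap the gene models Gm20388 and Gm43738, so their counts are uncertain to that extent.

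In the sterol steps, Sc5d, the desaturase that sets the C5 double bond of the sterol ring, was at 24.5, 40.1 and 19.0 CPM in the Sox17 controls and at 31.4, 4.12 and 1.12 CPM in the deficient libraries. The first set did not share the low values of the second and the third. The log2 fold change was -1.20 (SE 1.38, 95% interval -4.15 to 1.76, adjusted p = 1 by edgeR). It ran from -3.40 without the first deficient library to -0.66 without the third, and limma-voom gave -2.55 (unadjusted p = 0.0137, adjusted p = 0.941). In the Sox7 arm Sc5d was at 18.3 and 22.6 CPM in controls and at 21.6 and 0 CPM in deficient libraries. Sc5d was thus higher in 1 of 3 Sox17 sets and in 1 of 2 Sox7 sets, and lower in the others. In the second Sox7-deficient library, where it had no counts, 20.4% of all genes tested had none. Its Sox7 values were chosen for print after they were seen. The other genes of these steps had fitted log2 fold changes from -1.02 for Dhcr7 to 1.31 for Lss, and the first set and the third set of Cyp51, Sqle, Lss and Fdft1 pointed in opposite directions. The 3′ ends of Fdft1, Lss and Cyp51 overlap Ctsb, 4930483K19Rik and Akap9 on the other strand, so their counts are uncertain in the same way.

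Srebf2 was at 52.6, 119 and 115 CPM in the Sox17 controls and at 81.6, 211 and 184 CPM in the deficient libraries of the same sets. It was higher by 0.62, 0.82 and 0.67 on the log2(CPM + 1) scale, a difference of like size in every set, while the first deficient library lay below the second and the third control. The log2 fold change was 0.73 (SE 0.51, 95% interval -0.35 to 1.81, adjusted p = 1 by edgeR), from 0.43 to 1.03 as each library was left out. Insig1 was at 0.908, 17.9 and 14.1 CPM in controls and 8.94, 20.2 and 25.6 CPM in deficient libraries (log2 fold change 0.72, SE 1.32). The first control held 2 counts of Insig1, and without that library the log2 fold change was 0.18. Scap was at 25.9, 66.2 and 34.4 CPM in controls and 44.6, 36.6 and 59.1 CPM in deficient libraries (log2 fold change 0.14, SE 0.50), and its second set pointed down while the other sets pointed up. Its log2 fold change turned to -0.12 without the first control. With Insig2 and Stard4, the carrier that moves sterol between membranes, 5 of the 6 genes had fitted values above control when all libraries were used, the exception being Stard4 at -0.12.

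**Figure D3:**
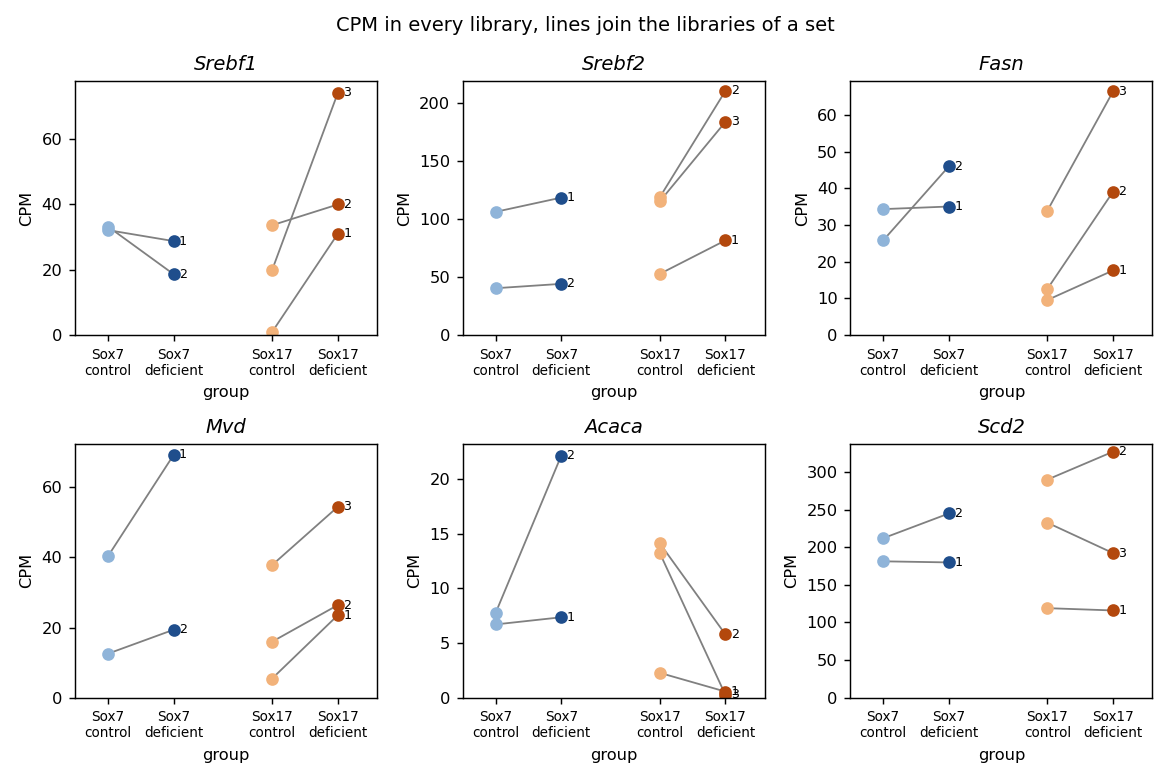
CPM of Srebf1, Srebf2, Fasn, Mvd, Acaca and Scd2 in every library (y axis, from 0), with lines joining the control and deficient library of a set and numbers naming the set. In the Sox17 arm the lines of Srebf1, Srebf2, Fasn and Mvd slope up in all 3 sets and those of Acaca slope down. The first Acaca line of that arm joins 5 counts and 4 counts. Control and deficient points of the Sox17 arm overlap in each panel.

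Other features of the Sox17 libraries also differed between control and deficient groups in the fit, not always in every set. The summed level of 14 proliferation markers was 389 to 737 CPM in the Sox17 controls and 793 to 940 CPM in the deficient libraries. In the fit 12 of 14 markers were higher, with set medians of 1.23, 1.18 and 0.08 on the log2(CPM + 1) scale. Mki67, Ccnb2 and Aurkb were at 0 in the first control and Aurkb at 0 in the second, and Cdk1 had an unadjusted p of 0.00983 by edgeR (log2 fold change 1.27, SE 0.44, adjusted p = 1). The summed level of 7 pericyte markers, none at 0 in any library, was 271 to 867 CPM in controls and 211 to 237 CPM in deficient libraries. Rgs5 alone was at 640 CPM in the first control. In the fit 7 of 7 were lower, but the set medians were -1.23, -1.59 and 0.32, the third pointing up. The first control also carried 2910 CPM of 5 erythroid markers, against 68.5 to 430 CPM in the other Sox17 libraries. Erythroid markers were lower in the fit for 5 of 5 genes. Macrophage and microglia markers were lower for 13 of 14, at a summed 18.6 to 484 CPM in controls and 19.8 to 234 CPM in deficient libraries, which overlap. The part of these lists in the values of the lipid genes was not tested.

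**Figure D4:**
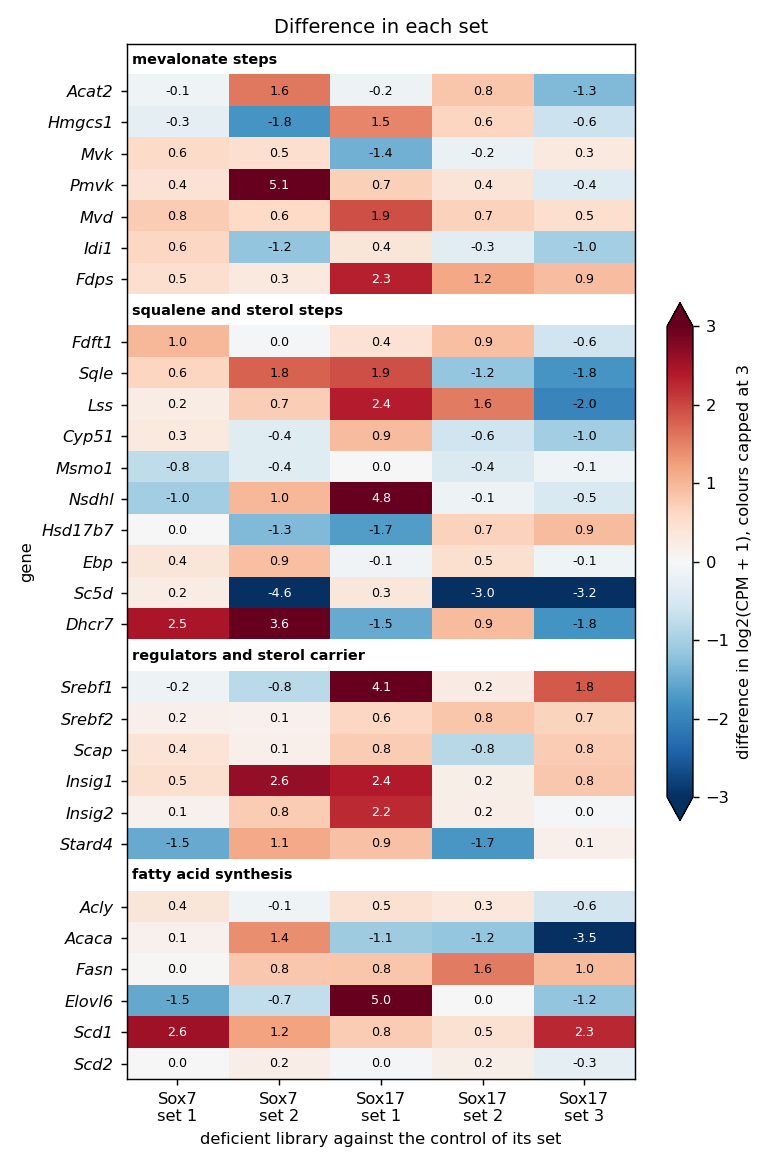
Difference between the deficient and the control library of each set on the log2(CPM + 1) scale for the 29 genes (rows) in the 5 sets (columns); red is higher and blue lower in the deficient library, with colours capped at 3. Across the 3 Sox17 columns 7 rows are higher throughout, among them Srebf2, Fasn, Mvd and Fdps, and 2 are lower throughout, Acaca and Msmo1.

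Whether the effect of losing Sox7 differed from that of losing Sox17 was tested as a contrast of its own. In edgeR's test 0 of the 29 genes had an adjusted p under 0.05, where 0% of all genes did, and 0 had an unadjusted p under 0.05, where 2.87% of all genes did. Srebf1 had the smallest p, with a Sox7 effect 1.86 lower than the Sox17 effect on the log2 scale (difference -1.86, SE 1.23, unadjusted p = 0.150, adjusted p = 1.00 by edgeR). Dhcr7 followed with a difference of 4.48 (SE 3.09) and Acaca with 3.18 (SE 2.44). Each of these 3 differences was larger than its SE, and none passed the threshold.

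Genes of one pathway can vary together across samples even when no group differs. Over the 10 libraries the median pairwise Pearson r of log2(CPM + 1) was 0.47 among the 6 fatty acid genes (Spearman 0.37), 0.09 among the 17 cholesterol genes (0.03) and 0.03 among all genes tested (0.02). Without the shallow first Sox17 control, the fatty acid value was 0.11 (0.18), the cholesterol value 0.03 (0.03) and that of all genes 0.02 (0.02). The share of fatty acid pairs with a Pearson r above 0 was 100% with that library and 73.3% without it, beside 53.0% and 51.6% for all genes. Much of the joint variation of the fatty acid genes thus went with that library. Among the 6 regulator and carrier genes the Pearson value went from 0.42 with it to -0.09 without it. Whether the fatty acid value of 0.11 is above that of other sets of 6 genes was not tested. These are descriptions over libraries that share sets and differ in depth.

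Further genes of lipid metabolism were read from lists by role, and none passed the threshold by edgeR in either comparison. Of 10 further sterol synthesis and SREBP processing genes, 2 were higher and 8 lower without Sox7 (median log2 fold change -0.22), and 6 were higher and 4 lower without Sox17 (0.12).

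Of 16 further fatty acid and glycerolipid genes, 8 were higher and 8 lower without Sox7, and 10 were higher and 6 lower without Sox17 (median 0.21). Acsl3, an acyl-CoA synthetase that activates fatty acids for lipid droplets, was at 90.3, 192 and 88.0 CPM in the Sox17 controls. It was at 28.8, 60.5 and 28.8 CPM in the deficient libraries, all below every control. The sets differed by -1.62, -1.65 and -1.58 on the log2(CPM + 1) scale, and the log2 fold change was -1.65 (SE 0.52, unadjusted p = 0.00507, adjusted p = 1 by edgeR). In the Sox7 arm it was at 108 and 40.6 CPM in controls and at 48.2 and 86.4 CPM in deficient libraries, with opposite directions in the sets.

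Among genes of sterol efflux, LXR signalling and storage, 7 of 11 were higher without Sox7 (median 1.04, with set medians of 0.99 and -0.16 on the log2(CPM + 1) scale) and 4 of 11 without Sox17 (median -0.32). Apoe, the apolipoprotein that carries cholesterol out of cells, was at 199 CPM in both Sox7 controls and at 1158 and 279 CPM in the deficient libraries (log2 fold change 1.85, SE 0.63, unadjusted p = 0.00849, adjusted p = 1 by edgeR). Npc2, which hands cholesterol out of lysosomes, was at 661 and 421 CPM in controls and at 3496 and 492 CPM in deficient libraries. Of the uptake genes, 7 of 10 were higher without Sox7 (median 0.94, with set medians of -0.47 and 0.26) and 5 of 10 without Sox17 (median -0.11). Among these the receptor gene Lrp1 was at 52.9 and 49.3 CPM in controls and at 368 and 66.4 CPM in deficient libraries. The highest value of Apoe, Npc2 and Lrp1 was in the first Sox7-deficient library, the one with 14200 CPM of macrophage markers, and the part of those markers in these values was not tested.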

How the data were processed

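Gene expression was measured with Lexogen QuantSeq 3′-tag libraries made from 500 ng of total RNA, per the labels' protocols. The deposited files hold whole-number counts per gene symbol, 1 file per library, which the authors did not normalise. Bowtie2, edgeR and the build mm10 are named per the submitters' processing notes, and their roles and versions, the annotation, the counter and its strand setting are not given in the sources used here. Lines that repeat a symbol were summed (35 symbols in the Sox7 files and 43 in the Sox17 files), and 1183 Mir symbols listed only in the Sox17 files were left out.

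The test was run with edgeR 4.0.16 under R 4.3.3 (quasi-likelihood F-test with robust dispersion, TMM scaling, filterByExpr, 4 group means over all 10 libraries, Benjamini-Hochberg adjustment over 13040 genes, threshold 0.05). The script was tested on simulated data, with a spread between libraries set below that of these data. The common biological coefficient of variation here was 0.989, so the simulation does not measure the power of this test. The 95% interval is the log2 fold change ± the t quantile times its SE, and the SE is |log2 fold change|/√F. CPM are relative to the TMM-scaled library size, and set differences use a pseudocount of 1. Values rest on counting and on the spread between libraries; a floor of 3 counts covers counting error only, since no molecular identifiers are mentioned. GENCODE vM21 on GRCm38 gave positions, within 500 bases of the 3′ end for overlapping genes.

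Groups and set numbers came from the sample titles. Shared run labels tie the libraries of 4 of the 5 sets, and libraries of 1 number were treated as pairs throughout. Sox17 set 1 has no such label, so its pairing rests on the titles alone. Statements on all 3 Sox17 sets depend in part on that pair. The deviations of paired libraries from their group means correlated at 0.20 in the Sox7 arm, where 2 libraries a group give both sets 1 value, and at 0.07, 0.06 and 0.05 in Sox17 sets 1, 2 and 3. Alternatives were DESeq2 1.42.0 size factors, no filter, DESeq2, limma-voom (limma 3.58.1), the sets as a replicate block, the libraries of 1 arm alone, Rn45s left out and each library left out in turn.

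The members and lists were chosen with earlier results of these data known. In each comparison, values in every library were given for the 3 cholesterol branch and 2 fatty acid branch members with the smallest unadjusted p, for any member with an unadjusted p under 0.05 or, in the Sox17 arm, groups without overlap, and for Srebf1, Srebf2, Scap and Insig1. From the other lists, genes with an unadjusted p under 0.05 were eligible, at most 3 a list. Further members given by library (Sqle, Hmgcs1, Mvk, Scd2, Scd1 in the Sox17 arm and Sc5d in the Sox7 arm) were chosen after their values were seen.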

Additional observations from a re-analysis of the deposited data

How the results depend on the processing

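No member was called in any of the 17 alternatives, in either comparison or in the difference between the arms. The lowest adjusted p of a member was 0.196 (Pmvk without the first Sox7 control, edgeR). Signs of single members moved more: 27 of 290 values in the Sox7 comparison and 25 of 290 in the Sox17 comparison had the opposite sign when a library was left out, and 6 of 203 in each under the other alternatives. A sign change counted as a reversal only where the log2 fold change exceeded its SE, which held for Acat2 in the Sox7 comparison alone (1.06, and from -0.22 without the second Sox7-deficient library to 1.70 without the first). The number of all genes called, 0 in each comparison, became 58 (Sox7), 30 (Sox17) and 58 (difference) with no filter, and 3, 29 and 15 with DESeq2. With the sets as a replicate block it was 1, 6 and 3, and the block changed no call of a member. Leaving out libraries gave 0 to 14 genes for Sox7, the highest without the first Sox7-deficient library, 0 to 1 for Sox17 and 0 to 9 for the difference. The Sox7 cholesterol branch median ran from -0.051 (without the first deficient library) to 0.59 (without the first control), and the Sox17 fatty acid median from -0.29 (without the first control) to 0.67 (without the third control). Leaving out a library moved the median of all genes by over 0.1 in some cases, to -0.26 without the first Sox7-deficient library and to 0.22 without the first Sox7 control. The cause of these changes was not tested. Where a Sox7 library is left out, the lone library of its group is assumed to vary like the other groups. Depth limits the members with few counts, above all in the first Sox17 control.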
